A study of Homo sapiens with 4 samples.

Results

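Ribosome footprints were set against RNA, gene by gene, in SW480 cells labelled as overexpressing LIN28B (OE-labelled line). SW480 is an established human colorectal adenocarcinoma line. LIN28B is an RNA-binding protein that blocks maturation of let-7 microRNAs. A gene was included when it had at least 100 counts in the RNA library or at least 100 in the footprint library, which kept 7733 of the 19192 genes listed. Of these, 4605 reached 100 counts in both assays, 2997 in RNA only and 131 in footprints only. Passing in 1 assay only favours genes that are higher in that assay, although the deeper RNA library also lets genes near the median ratio pass by RNA alone, so the number that passed in both assays is given beside the families it bears on. At the limit, 29 genes had a larger count of exactly 100 and were included, and 35 had 99 and were not.

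The series holds 4 libraries, 1 footprint and 1 RNA library for each of 2 lines, each from 3 pooled culture plates. The second line carries the same LIN28B overexpression label plus a knockout label for IMP1 (IGF2BP1), which binds mRNAs and affects their stability and translation, and serves here as a second pair of libraries (knockout-labelled line). The OE-labelled totals were 2732760 footprint counts and 5429224 RNA counts. RNA was fragmented from total RNA and both assays were depleted of ribosomal RNA. For the RNA library the labels name SW480 as the source but SW840 as the cell line, and it was taken as SW480. With 1 library per assay there was no replicate check and no test, and the 95% intervals (exact binomial, Clopper-Pearson, on the 2 counts) cover counting error only. How the overexpression or the knockout was made, and whether the line is 1 clone, is not given in the sources used here.

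In ribosome profiling, nuclease digests the mRNA that ribosomes do not cover, and the protected fragments are sequenced beside randomly fragmented RNA. The footprint level of a gene divided by its RNA level is a measure of how densely its transcripts are occupied by ribosomes. Fragments held by other proteins, RNAs that are abundant but not translated, and reads shared between copies of a sequence enter the same ratio. The value used is the log2 of footprint over RNA CPM (each count scaled to its library's total), set to 0 at the median gene, so that 1 is 2-fold above that gene and −1 is 2-fold below it. It compares a gene with the median gene and holds no absolute ribosome number.

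Ratios spread more widely below the median gene than above it. The 5th and 95th percentiles were −2.44 and 1.49, and the SD over genes was 1.27. At least 2-fold above the median gene were 1180 genes (15.3% of those included), and at least 2-fold below it were 1770 (22.9%). At 4-fold the counts were 61 above (0.789%) and 622 below (8.04%). Among the genes with at least 100 counts in both assays, 1049 were 2-fold above and 317 below, and 30 and 47 were past 4-fold. All 131 genes that passed by footprints only were 2-fold above, an outcome that the filter and both library totals fix in advance. Of the 2997 that passed by RNA only, 1453 were 2-fold below, a route that likewise favours low ratios. The median was 0.48 for the genes passing in both assays and −0.95 for those passing by RNA only. If the centre were set on the former, every value below would fall by 0.48.

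**Figure D1:**
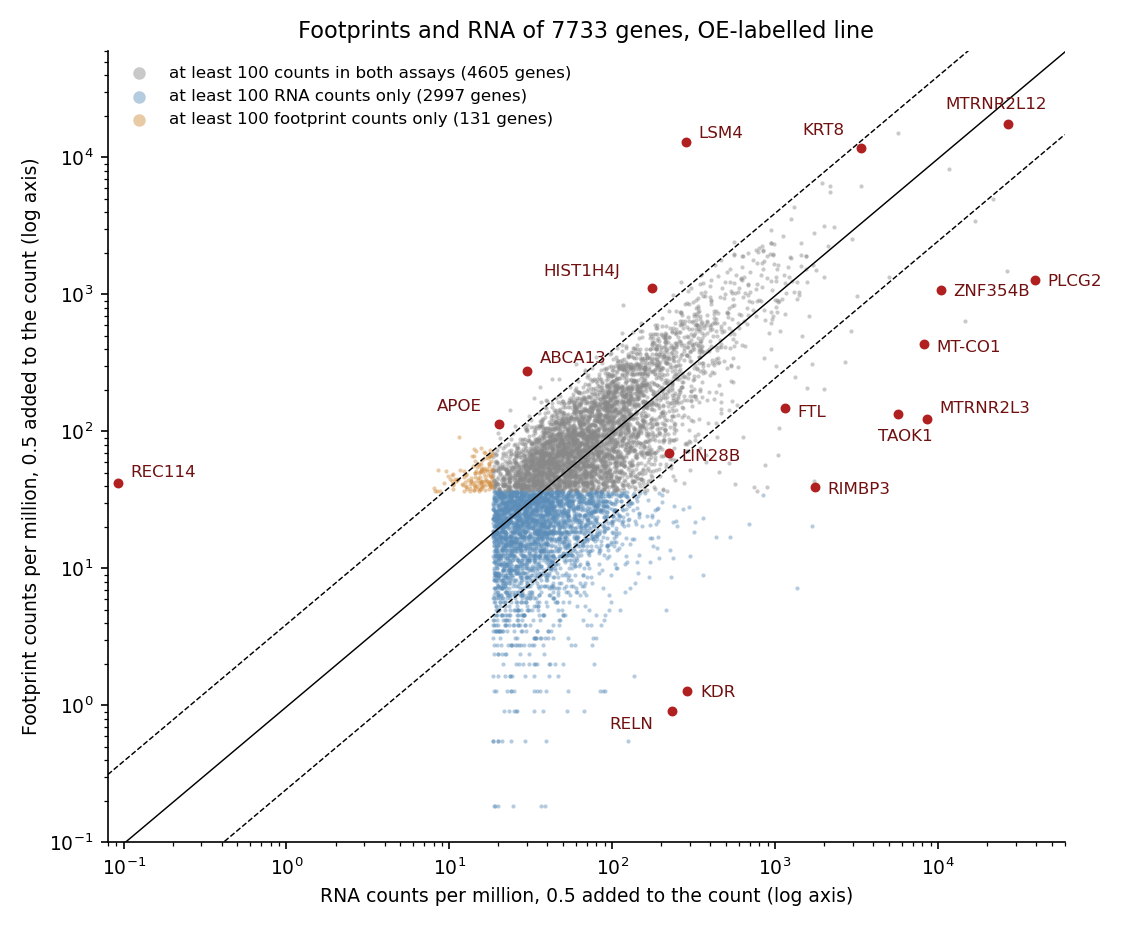
Each point is a gene of the OE-labelled line, with RNA CPM on the horizontal and footprint CPM on the vertical axis (both log axes, 0.5 added to each count). The solid line marks the median gene and the dashed lines 4-fold above and below it. LSM4 and REC114 lie far above the band, and PLCG2, TAOK1, RIMBP3, KDR and RELN far below it.

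The highest ratio among genes with at least 100 counts in both assays belonged to LSM4, a subunit of the Sm-like ring that binds U6 snRNA and takes part in mRNA decay (chr19:18306230-18323274, GRCh38, minus strand). LSM4 had 35110 footprint counts, 1.28% of the library, and 1535 RNA counts. Its log2 ratio was 5.54 (95% interval 5.47 to 5.61), and it was 4.89 in the knockout-labelled line (20449 and 1584 counts). None of its 25-mers occurred in another listed transcript, and none of the noncoding RNAs searched had a run of 25 nt in it. Where on the transcript the footprints lay was not analysed here, since the counts are per gene.

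ABCA13, a very large member of the ABC transporter family, followed with 752 footprint and 162 RNA counts, a log2 ratio of 3.23 (2.99 to 3.49). Its value was 3.93 in the knockout-labelled line. Further genes among the 15 highest have varied roles. GNG5, a G-protein gamma subunit, had 841 and 324 counts (2.40, 2.21 to 2.59). APOE, the lipid-carrying apolipoprotein E, had 310 and 109 (2.53, 2.21 to 2.86). MT1X, a metal-binding metallothionein, had 660 and 254 (2.40, 2.19 to 2.62). LMNA, which encodes the A-type nuclear lamins, had 3366 and 1431 (2.26, 2.17 to 2.35), and UBB, a polyubiquitin gene, 6627 and 3045 (2.15, 2.08 to 2.21). All 5 were also at least 2-fold above the median gene in the knockout-labelled line, with values from 1.78 for APOE to 2.61 for MT1X.

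For UQCRHL and NDUFB8, both tied to the respiratory chain, parts of the sequence also occur in other listed transcripts. UQCRHL, a copy of the complex III hinge protein gene UQCRH, had 662 footprint and 232 RNA counts (2.53), while UQCRH itself had 779 and 599 (1.40). The longest coding run the pair share is 157 nt. NDUFB8, a complex I subunit, had 319 and 106 counts (2.61), and 70.6% of its 25-mers also occur in another listed transcript, RP11-411B6.6 among them. How the counting divided such reads is not given in the sources used here, so both values are uncertain.

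REC114, a factor of meiotic recombination, was the single gene with at least 100 footprint counts and under 10 RNA counts. It had 114 footprint counts and 0 RNA counts, at least 77.3-fold above the median gene when its RNA is set to the floor of 3 counts per library. Neither library of the knockout-labelled line had a count for it.

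Replication-dependent histone mRNAs, which end in a stem-loop in place of a poly(A) tail and are made in S phase, stood high as a family. Of 60 listed, 48 passed the filter, 44 of them in both assays, with a median log2 ratio of 1.53. At least 2-fold above the median gene were 45 of the 48, against 15.3% of all genes, and none was 2-fold below. HIST1H4K had 2283 footprint and 631 RNA counts (2.88), HIST1H4J 3037 and 954 (2.69), and HIST2H2AB 572 and 195 (2.57). The family's lowest value, 0.68, was that of HIST2H2BE, with 417 and 528 counts, and HIST1H2AI (0.79) and HIST1H2AH (0.98) were the other two under 2-fold. HIST1H4K and HIST1H4J share their whole coding sequence of 312 nt, so their counts cannot be told apart. Leaving out genes with over 5% of 25-mers in another listed transcript left 8 histones, with a median of 1.37. The linker histone HIST1H1C stood at 1.18, with 1173 and 1052 counts. In the knockout-labelled line the family's median was 1.55.

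Keratins, the intermediate filament proteins of epithelia, also lay above the median gene. Of 13 that passed, 9 were at least 2-fold above, against 15.3% of all genes. None was 2-fold below, and the median was 1.81. The simple-epithelium keratins KRT8 and KRT18 held the largest counts, 32115 footprint and 18310 RNA counts for KRT8 (1.83) and 41281 and 30815 for KRT18 (1.45). Some keratins of stratified epithelium and hair reached higher ratios on far fewer counts. The hair keratin KRT81 did not, with 1755 footprint and 1405 RNA counts (1.34). KRT76 had 393 and 128 counts (2.64, 2.35 to 2.94), KRT6B 482 and 178 (2.46), and KRT85 450 and 198 (2.21). KRT5 had 4505 and 2307 counts (1.99). The ratio of KRT13 moved from 2.17 here (244 and 110 counts) to 0.56 in the knockout-labelled line. In 9 of the 13, over 5% of 25-mers occur in another listed transcript, and footprints are shorter than RNA fragments at their longest, 34 against 50 nt.

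Families of chaperones, proteasome subunits, glycolytic enzymes and tRNA synthetases had medians above the median gene. Of all included genes 15.3% were at least 2-fold above, and of the 4605 passing in both assays 1049 were. Heat shock proteins had a median of 1.46, with 11 of 14 at least 2-fold above and none below. HSPA8, the constitutive HSC70 chaperone, had 17839 footprint and 10590 RNA counts (1.78), and HSPB1, a small heat shock protein, had 1441 and 723 (2.02). DNAJB1, an HSP40 co-chaperone, was the lowest at −0.47, with 293 and 827 counts. The subunits of the cytosolic chaperonin CCT, which folds actin and tubulin, had a median of 1.19, and CCT2, CCT3, CCT5, CCT7 and CCT8 passed 2-fold. CCT3 was highest, with 2343 and 1512 counts (1.66), and TCP1 lowest, with 1090 and 1730 (0.36). Their clients lay close by, with a median of 1.03 over 13 tubulins and actins. Only 2 of the 13 remained without genes with over 5% of 25-mers in another listed transcript. ACTB had 16869 and 18241 counts (0.91), TUBB 5167 and 3402 (1.63), and ACTG1 was lowest, with 5222 and 8433 (0.33).

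Proteasome subunits, which degrade ubiquitin-tagged proteins, had a median of 1.13, with 24 of 36 at least 2-fold above and none below. Among all included genes 15.3% were 2-fold above. Their range was narrow, from 0.14 for PSMD5 (196 and 362 counts) to 1.67 for PSMC4 (647 and 413). Glycolytic enzymes had a median of 1.11 and 11 of 16 at least 2-fold above. ENO1, the enolase, was highest, with 11935 and 7116 counts (1.77), and PGAM1, a phosphoglycerate mutase, lowest, with 639 and 1228 (0.08). Cytosolic aminoacyl-tRNA synthetases, which charge tRNAs, had a median of 1.07 with 12 of 19 past 2-fold, from IARS (2992 and 4128 counts, 0.56) to DARS (962 and 685, 1.51).

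Nuclear genes for oxidative phosphorylation had a median of 1.07, with 42 of 78 at least 2-fold above, against 15.3% of all genes. Only ATP5G3, a subunit of the ATP synthase ring, was 2-fold below, with 853 footprint and 9207 RNA counts (−2.41), and its 3′ UTR holds a stretch of Y RNA described further on. The catalytic subunit gene ATP5B stood at 1.11, with 5377 and 5071 counts. Mitochondrial ribosomal proteins had a median of 0.78, with 28 of 73 above and MRPS16 alone 2-fold below (150 and 690 counts, −1.17). Translation initiation factors had a median of 0.61, with 10 of 36 above, from EIF4G2 (1484 and 5858 counts, −0.96) to EIF1B (304 and 196, 1.66). All 36 passed in both assays, where 1049 of 4605 genes were 2-fold above and the median was 0.48. Their family lay close to those genes, with a median of 0.13 on that centre. ER chaperones and translocon genes had a median of 0.70, HSPA5 (BiP) being highest with 3278 and 1880 counts (1.83) and SSR3, a translocon-associated subunit, lowest with 470 and 2292 (−1.26). Mitotic genes had a median of 0.85, with 12 of 27 above, CCNB1 (cyclin B1) at 1.78 with 1058 and 625 counts, and CENPA, the centromeric histone H3 variant, at −1.29 with 42 and 211.

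**Figure D2:**
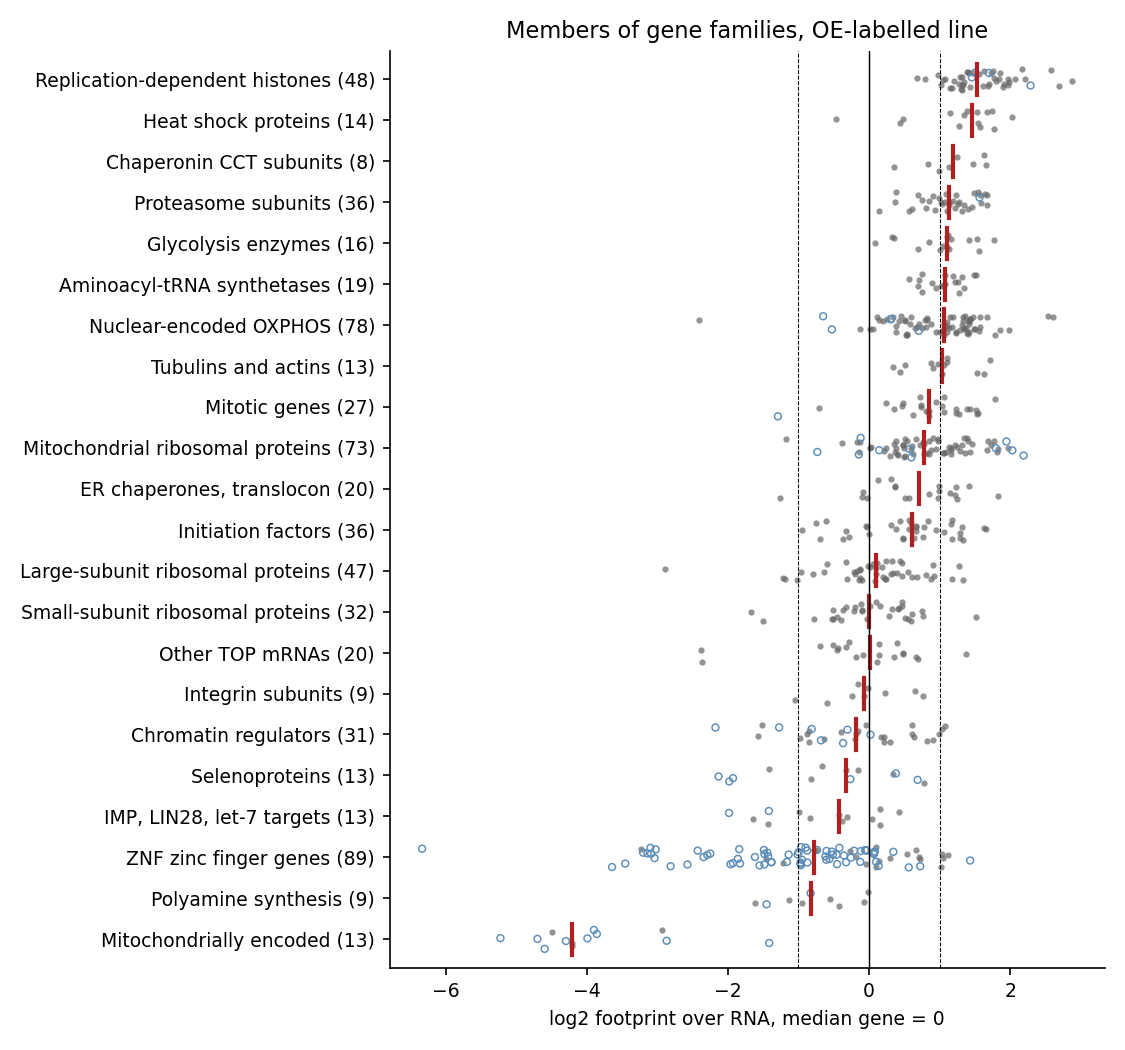
Points are the members of 22 gene families that passed the filter (number in brackets), plotted by log2 footprint over RNA with the median gene at 0. Filled points had at least 100 counts in both assays, open points in 1 assay only, and red bars are family medians. Histones and heat shock proteins sit highest, ribosomal proteins around 0, and the mitochondrially encoded genes near −4.

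Ribosomal protein mRNAs carry a terminal oligopyrimidine (TOP) tract at their start, through which growth signalling controls their translation. They sat at the median gene. The 47 large-subunit genes had a median of 0.09 and the 32 small-subunit genes −0.01, and 20 other mRNAs described as carrying a TOP tract had 0.01. RPL27 (1.18), RPL24 (1.33) and FAU (1.51) were among the ribosomal genes at least 2-fold above. RPL41, RPL12 (−1.22), RPLP0 (−1.19), RPL22 (−1.01), RPS12 (−1.67) and RPS27 (−1.51) were at least 2-fold below. These are 4 of the 47 and 2 of the 32, where 22.9% of all included genes were 2-fold below. All 47 and 32 passed in both assays, where 317 of 4605 genes were 2-fold below. Above were 3 of the 47 and 1 of the 32, against 15.3% of all included genes. RPL41, whose coding sequence is only 78 nt, was lowest with 567 footprint and 8552 RNA counts (−2.89, −3.02 to −2.77). These medians stand near 0, so centring on the genes with at least 100 counts in both assays makes them −0.39, −0.49 and −0.47.

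Among the other TOP mRNAs, EEF1A1, the elongation factor that delivers aminoacyl-tRNA, had 22653 footprint and 63097 RNA counts (−0.45). EEF2, the translocation factor, had 6906 and 16002 (−0.19). TPT1, which encodes translationally controlled tumour protein, had 1488 and 15791 (−2.38, −2.46 to −2.31), and PABPC1, the poly(A)-binding protein, 684 and 7149 (−2.36). NPM1, nucleophosmin, lay on the other side, with 6464 and 5090 (1.37). TPT1 and PABPC1 were the 2 of 20 at least 2-fold below, and they stood at −1.78 and −2.12 in the knockout-labelled line. All 20 passed in both assays, where 317 of 4605 genes were 2-fold below, beside 22.9% of all included genes.

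The first 20 bases of 5 such mRNAs are shown to set low and high members side by side, from RefSeq starts (GRCh38.p14), with the opening run of C and T in capitals (5′ UTR; TPT1 chr13:45341164-45341183 minus, RPL41 chr12:56116633-56116652 plus, RPS12 chr6:132814569-132814588 plus, RPS27 chr1:153990762-153990781 plus, FAU chr11:65122115-65122134 minus).
TPT1: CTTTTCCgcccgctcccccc
RPL41: CTCTCggccttagcgccatt
RPS12: CTCTTTCCCTgccgccgccg
RPS27: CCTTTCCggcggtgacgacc
FAU: CTCTTTCTCgactccatctt
FAU, at 1.51, opens with a pyrimidine run as do the low TPT1, RPL41, RPS12 and RPS27. A start of C followed by at least 4 pyrimidines was found in 373 of 6009 included genes with a RefSeq start (6.21%). Large-subunit genes had it in 25 of 38 and small-subunit genes in 18 of 25. Over all 6009 genes the median ratio was −0.02 with such a start and 0.01 without. It was 0.05 against 0.09 for large-subunit genes and −0.11 (18 genes) against 0.47 for small-subunit genes. Among nuclear oxidative phosphorylation genes it was 0.38 for the 4 of 49 with such a start and 1.24 for the others.

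The mRNAs of the iron-storage protein ferritin hold an iron-responsive element in the 5′ UTR, a hairpin that iron regulatory proteins bind to block translation when iron is low. Of 5 listed mRNAs with such elements that passed, all in both assays, the 2 ferritins were at least 2-fold below and none was above, with a median of 0.07. Among the 4605 genes passing in both assays 317 were 2-fold below, and 22.9% of all included genes were. FTL, the light chain, had 402 footprint and 6221 RNA counts (−2.93, −3.08 to −2.78). FTH1, the heavy chain, had 3629 and 27031 (−1.87, −1.92 to −1.82). In the knockout-labelled line the values were −3.07 and −2.04. EPAS1 (953 and 1846 counts, 0.07) also carries a 5′ element by description, while TFRC, the transferrin receptor (991 and 1431, 0.49), carries its elements in the 3′ UTR. EPAS1, TFRC and the remaining member of the 5, the highest at 0.97, were within 2-fold of the median gene.

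The ferritin elements are shown with the loop motif CNNNNNCAGTGN in capitals (GENCODE 29 transcripts, GRCh38, 5′ UTR; FTL chr19:48965332-48965361 plus, FTH1 chr11:61967576-61967605 minus).
FTL: tgtctcttgCTTCAACAGTGTttggacgga
FTH1: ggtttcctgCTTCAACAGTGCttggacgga
The motif starts at base 41 of the FTL transcript and at base 65 of FTH1. Searched on the transcript's own strand, it occurs in 573 of 7726 annotated 5′ UTRs of included genes (7.42%), and in 230 of 3572 first stretches of 200 bases (6.44%). These letters alone do not make the hairpin.

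Upstream open reading frames can hold ribosomes back from the main coding sequence. Of 18 listed mRNAs described as controlled this way, 4 were at least 2-fold below and 1 above, with a median of −0.29, and 15 of the 18 passed in both assays. The share below is close to the 22.9% of all included genes. AMD1, which makes a precursor needed for polyamines, was lowest with 184 footprint and 1149 RNA counts (−1.62, −1.85 to −1.39). MIEF1 (92 and 509 counts, −1.44), PTP4A1 (108 and 502, −1.19) and MDM2 (100 and 455, −1.16) were the others below. ATF5, a stress-induced transcription factor, was highest with 156 and 81 (1.97). ATF5 passed by footprints only, a route by which all 131 genes were 2-fold above. ATF4, the central factor of the integrated stress response, had 1458 and 2568 (0.21). Polyamine genes as a group had a median of −0.83 (7 of 9 passed in both assays) and 3 of 9 at least 2-fold below against 22.9% of all genes, AMD1 with the antizymes OAZ2 (35 and 197, −1.45) and OAZ1 (526 and 2339, −1.13). ODC1, the first enzyme of the route, had 741 and 2215 (−0.56) and stood at −1.60 in the knockout-labelled line.

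AMD1 holds a single upstream ATG in its 336-nt 5′ UTR, which opens a frame of 7 codons with its stop. It is printed with the start and stop in capitals (GENCODE 29, GRCh38 chr6:110874796-110874816, plus strand).
AMD1: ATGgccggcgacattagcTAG
Over all included genes the median ratio went down with the number of ATG triplets in the annotated 5′ UTR. It was 0.24 with none (3901 genes), −0.12 with 1, −0.34 with 2 to 4 and −0.54 with 5 or more (569 genes). By 5′ UTR length the medians also fell, from 0.27 (up to 76 nt) to −0.30 (364 nt or more). Triplet number and 5′ UTR length were not separated.

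Selenoprotein mRNAs, which read a UGA codon as selenocysteine, had a median of −0.33 over 13 genes, of which 7 passed in both assays. GPX3 (11 footprint and 102 RNA counts, −2.13), SEPW1 (18 and 148, −1.98), SEPN1 (65 and 506, −1.93) and SELT (106 and 576, −1.41) were at least 2-fold below, against 22.9% of all genes. GPX3, SEPW1 and SEPN1 passed by RNA only, a route by which 1453 of 2997 genes were 2-fold below. TXNRD1, the cytosolic thioredoxin reductase, was highest with 1084 and 1289 (0.77).

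The lowest ratios included genes whose listed transcripts contain copies of abundant noncoding RNAs. An exact run of at least 25 nt in the sense direction was sought for 16 noncoding RNAs. Leaving aside 7SL, the RNA from which Alu repeats derive, 22 genes held one, and all 22 passed the filter. Their median was −3.34, with 18 at least 2-fold below and 17 at least 4-fold below, where all included genes gave 22.9% and 8.04%. A single family, the MTRNR2L genes described further on, makes up 11 of the 22 and 10 of the 18. PLCG2, phospholipase C gamma 2, had 3485 footprint and 214112 RNA counts (−4.92, −4.97 to −4.87), 3.94% of all RNA counts. Its 3′ UTR holds 78 nt of 7SK, the RNA that restrains the elongation factor P-TEFb, within the annotated pseudogene RN7SKP176. RIMBP3 (106 and 9504 counts, −5.46) and RIMBP3B (119 and 9362, −5.27), near-identical copies, hold 34 nt of 7SK each.

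TAOK1, a stress-activated protein kinase, had 368 footprint and 31033 RNA counts (−5.37, −5.53 to −5.23) and holds 33 nt of the spliceosomal U2 RNA. ZNF354B, a zinc finger gene, had 2939 and 56293 (−3.24, −3.29 to −3.18) and holds 32 nt of U1. TMC5, a transmembrane channel-like gene, had 50 and 1720 (−4.07) with 29 nt of U4. The Y RNA RNY4 gave runs of 40 nt in ATP5G3 (−2.41) and 31 nt in ATAD5 (60 and 1335 counts, −3.44). The exceptions, within 2-fold of the median gene, were NSA2 with U6 (210 and 424 counts, 0.01), ALDH9A1 (270 and 347, 0.66) and UHRF1BP1 (227 and 901, −0.96) with RNY3, and MTRNR2L12.

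Runs of 5 genes are shown with the noncoding RNA itself, the first 25 shared bases in capitals and up to 5 bases before them (GENCODE 29, GRCh38; all 5 gene stretches lie in 3′ UTRs). Positions are PLCG2 chr16:81961927-81961951 plus, RIMBP3 chr22:18605883-18605912 minus, TAOK1 chr17:29543621-29543648 plus, ZNF354B chr5:178884732-178884761 plus and TMC5 chr16:19498714-19498743 plus.
PLCG2: GATGTGAGGGCGATCTGGCTGCGAC
RN7SK, bases 1 to 25: GATGTGAGGGCGATCTGGCTGCGAC
RIMBP3: tataaGAGTAGCTGCGCTCCCCTGCTAGAA
RN7SK, bases 190 to 219: tatacGAGTAGCTGCGCTCCCCTGCTAGAA
TAOK1: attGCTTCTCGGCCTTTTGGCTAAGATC
RNU2-1, bases 1 to 28: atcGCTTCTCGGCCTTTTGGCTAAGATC
ZNF354B: aagatTACCATGATCACGAAGGTGGTTTTC
RNU1-1, bases 17 to 46: ggagaTACCATGATCACGAAGGTGGTTTTC
TMC5: cagcgCTGGCAATTTTTGACAGTCTCTACG
RNU4-1, bases 108 to 137: cggcaCTGGCAATTTTTGACAGTCTCTACG
A read that lies within such a run carries the same letters whether it came from the gene or the noncoding RNA. A read that reaches past the run can carry letters that differ, and how the counting assigned either kind is not given in the sources used here. Pseudogenes of U1 overlap exons of 3 included genes, all at least 2-fold below, namely ZNF354B, ST8SIA1 (38 and 1026 counts, −3.71) and IL32 (313 and 2369, −1.89). The 231 included genes with a run of 7SL had a median of −0.82 and a median UTR share of 76.6%.

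The humanin-like MTRNR2L genes are nuclear copies of the mitochondrial 16S ribosomal RNA gene MT-RNR2. Together they took 12% of RNA counts and 2.91% of footprint counts. All 11 that passed hold a run of MT-RNR2, with a median of −3.02. Of these, 10 were at least 2-fold below, against 22.9% of all included genes. MTRNR2L3 was the lowest of all genes with at least 100 counts in both assays, with 335 footprint and 46203 RNA counts (−6.08, −6.24 to −5.93). MTRNR2L6 had 1760 and 79920 (−4.48), MTRNR2L8 4068 and 144415 (−4.13), and MTRNR2L1 13516 and 117563 (−2.10). MTRNR2L12 differed, with 47926 and 146251 counts (−0.59, −0.60 to −0.57).

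The annotated coding sequence of 75 nt is shown for 4 of them below the matching stretch of MT-RNR2 (bases 963 to 1037 of that RNA, chrM:2633-2707, plus strand), with the letters that differ from it in capitals. Positions are MTRNR2L3 chr20:57358965-57359039 minus, MTRNR2L8 chr11:10508152-10508226 minus, MTRNR2L1 chr17:22524062-22524136 plus and MTRNR2L12 chr3:96617199-96617273 minus (GENCODE 29, GRCh38).
MT-RNR2: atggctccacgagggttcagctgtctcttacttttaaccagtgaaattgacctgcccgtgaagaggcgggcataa
MTRNR2L3: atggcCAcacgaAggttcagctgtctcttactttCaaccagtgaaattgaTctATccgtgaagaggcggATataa
MTRNR2L8: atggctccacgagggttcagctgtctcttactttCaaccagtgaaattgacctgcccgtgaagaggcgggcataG
MTRNR2L1: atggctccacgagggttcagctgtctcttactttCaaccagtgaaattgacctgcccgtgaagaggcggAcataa
MTRNR2L12: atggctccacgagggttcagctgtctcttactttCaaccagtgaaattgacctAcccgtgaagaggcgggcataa
MTRNR2L3 differs from MT-RNR2 at 9 of the 75 bases. MTRNR2L1, MTRNR2L8 and MTRNR2L12 each differ at 2, and their ratios still ran from −4.13 to −0.59. Of each listed transcript in this family, 89.9% to 95.2% is UTR, and how much of the transcript was counted is not given in the sources used here.

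**Figure D3:**
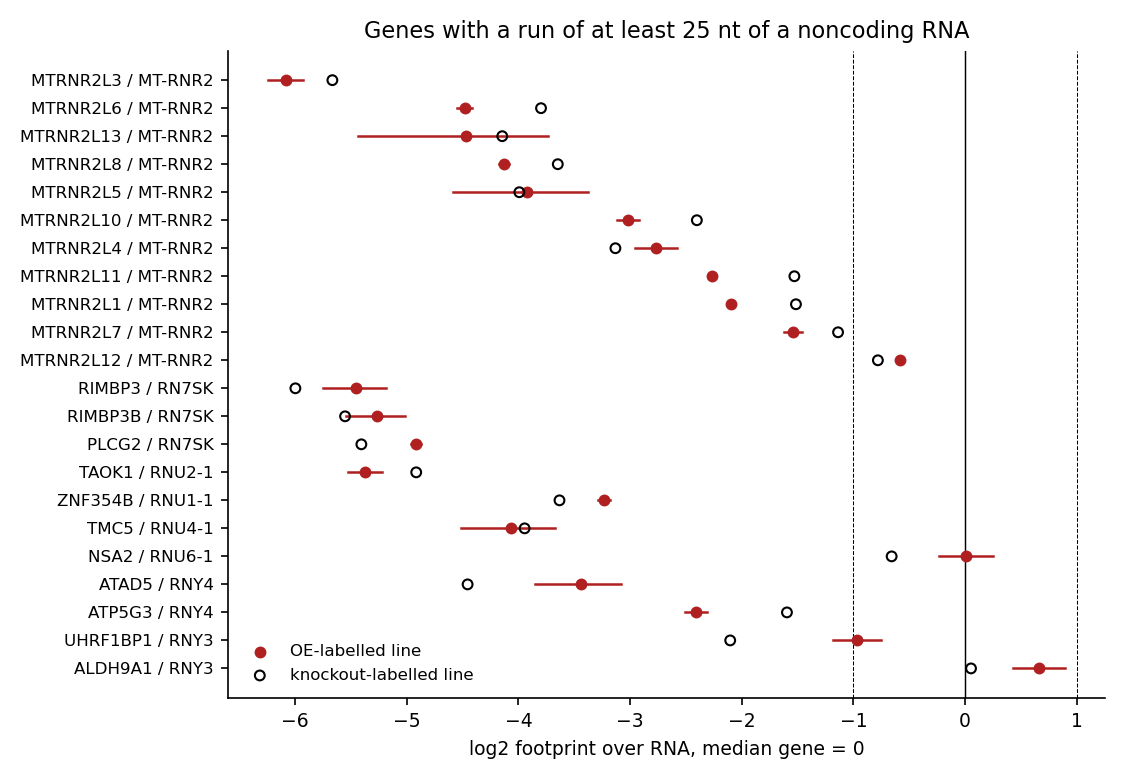
Each row is a gene with a run of at least 25 nt of the noncoding RNA named after the slash, plotted by log2 footprint over RNA (median gene at 0). Red points and bars are the OE-labelled line with 95% counting intervals, and open circles the knockout-labelled line. In the OE-labelled line 18 of 22 lie at or below −1, and every gene at or below −4 here is also below −3 in the other line.

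The 13 mRNAs encoded by mitochondrial DNA are translated by mitochondrial and not cytosolic ribosomes. All 13 were at least 2-fold below and 12 were 4-fold below, against 22.9% and 8.04% of all included genes. Their median was −4.21, and they made up 1.31% of RNA counts and 0.0787% of footprint counts. MT-CO1, a core subunit of cytochrome c oxidase, had 1192 footprint and 44759 RNA counts (−4.21, −4.29 to −4.12). MT-CO3 had 106 and 4873 (−4.49), and MT-CYB, cytochrome b, 106 and 4022 (−4.22). MT-ND4L of complex I was lowest with 5 and 417 (−5.22), and MT-ATP8 of the ATP synthase highest with 49 and 268 (−1.42). The complex IV subunit MT-CO2 stood above its partners, with 389 and 6044 counts (−2.93). Only 4 of the 13 reached 100 counts in both assays. The others passed by RNA only, a route by which 1453 of 2997 genes were 2-fold below and 575 were 4-fold below. How well the protocol recovers footprints of mitochondrial ribosomes was not tested.

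The remaining genes among the lowest held none of the 22 runs and are not mitochondrial. PGPEP1, a pyroglutamyl peptidase, had 100 footprint and 4199 RNA counts (−4.36), and FEM1A, an adaptor of ubiquitin ligases, had 155 and 4685 (−3.89). WDR31, a WD-repeat gene, had 182 and 5628 (−3.92), and IRAK1, a kinase of interleukin-1 receptor signalling, 113 and 3098 (−3.75). The 3′ UTRs of PGPEP1, FEM1A and WDR31 hold runs of 7SL, of 40, 30 and 35 nt, and 91.1%, 79.0% and 77.4% of their transcripts is UTR, against a median of 48.6% over all included genes. IRAK1 holds no run of the noncoding RNAs searched.

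A further 130 genes had at least 100 RNA counts and under 10 footprint counts. KDR, the VEGF receptor 2, had 3 footprint counts and 1571 RNA counts, and RELN, the secreted protein reelin, had 2 and 1260. Both kept this in the knockout-labelled line, with 3 and 1312 counts for KDR and 1 and 1629 for RELN. ADCY1, an adenylate cyclase, had 1 and 676, CASC10 4 and 743, DMRT2, a DM-domain transcription factor gene, 3 and 489, and AKAP3, a protein kinase A anchor of sperm, 3 and 475. Outside these 130, PHACTR1, a phosphatase and actin regulator, had 19 and 7435 counts (−7.55, −8.32 to −6.94). WISP2, OR51E2, CDHR5, AJAP1, FAM189A1 and CYP27C1 had 0 footprint counts on 102 to 210 RNA counts. For WISP2 that is at least 34.4-fold below the median gene at the floor of 3 counts.

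Zinc finger genes named ZNF, mostly transcription factors, had a median of −0.78, with 35 of 89 at least 2-fold below and 5 above. Of all included genes 22.9% were below and 15.3% above. Only 20 of the 89 passed in both assays, and over those the median was 0.12, so the low median rests on genes that passed by RNA. ZNF844 was lowest with 55 footprint and 9092 RNA counts (−6.33), and ZNF143 highest with 101 and 76 (1.43). ZNF143 passed by footprints only, a route by which all 131 genes were 2-fold above. ZNF622, ZNF330, ZNF326 and ZNF503 were the others above, from 1.02 to 1.12. Chromatin regulators had a median of −0.18 over 31 genes, 24 of which passed in both assays. WHSC1 (47 and 436 counts, −2.18), KMT2C (105 and 636, −1.57) and NSD1 (135 and 791, −1.52), histone methyltransferases, and CHD3 (60 and 297, −1.27), a remodeller, were at least 2-fold below. HDAC2 (1.03) and KDM5B (1.07) were above. These 4 below and 2 above of the 31 are smaller shares than over all genes.

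Cell-cycle and signalling genes spread to both sides. Of all included genes 15.3% were at least 2-fold above and 22.9% below. The few members past 2-fold in each list here are therefore not read as a trait of the list. E2F1, the S-phase transcription factor, had 14 footprint and 215 RNA counts (−2.87), and RBL2, a relative of RB, 76 and 440 (−1.50). CCND1 (cyclin D1) had 3450 and 6846 (0.04), CDK4 910 and 1493 (0.31), and the inhibitor CDKN1C 113 and 115 (1.00). Of 20 immediate early genes, FOSL1, CYR61, JUNB and DUSP6 were at least 2-fold above, from 1.01 to 1.27, and JUND (−1.77), BTG1 (−1.05) and DUSP5 (−1.05) below. JUNB and JUND, related AP-1 subunits, differed in direction, with 252 and 221 counts against 69 and 480. In sterol synthesis NSDHL (207 and 84 counts, 2.32), FDPS (1.43) and FDFT1 (1.41) were above. INSIG1, the sterol-regulated ER retention factor, was below with 23 and 160 (−1.75). NSDHL passed by footprints only, where every gene was 2-fold above, and INSIG1 by RNA only. Among 14 matrix genes LAMB2 (1.17), LAMB3 (1.22) and TNC (1.37) were above and none below. Among 9 integrins ITGB5 (−1.05) was below and none above. Of the 15 SR protein and CLK kinase genes, SRSF7 (1.39), SRSF2 (1.31) and CLK3 (1.30) were above and SRSF8 (−1.44) below.

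LIN28B, the overexpressed factor, had 190 footprint and 1205 RNA counts and a log2 ratio of −1.64 (−1.87 to −1.42). The labels do not say whether the expressed copy carries the gene's own UTRs. With genes centred within 5 equal groups of UTR share its value was −0.88, no longer 2-fold below. IGF2BP1 had 332 and 840 counts (−0.31, −0.50 to −0.13), and changed sign to 0.44 under that centring. IGF2BP2 had 457 and 1663 (−0.84), and IGF2BP3 253 and 382 (0.43), which became −0.05 when centred on genes with at least 100 counts in both assays. Of 13 genes of these families and described let-7 targets, NRAS (85 and 687 counts, −1.98), HMGA2 (101 and 559, −1.44) and ARID3B (61 and 334, −1.42) were at least 2-fold below along with LIN28B, and none was above. Of the 13, 11 passed in both assays, and 22.9% of all genes were 2-fold below. The median of the 13 was −0.42, and their median UTR share was 79.0%.

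Ratios followed the make-up of the transcript. With genes in 5 equal groups from the lowest UTR share to the highest, the medians were 0.47, 0.30, 0.07, −0.20 and −0.75. By 3′ UTR length they ran from 0.68 (up to 317 nt) to −0.85 (2843 nt or more). Spearman's rho across genes was −0.45 for 3′ UTR length, −0.40 for transcript length and −0.09 for coding length, over the genes with an annotated transcript, which share both libraries and are not independent replicates. If reads over whole transcripts were counted, UTRs would add RNA counts and few footprints, and the counted part is not given in the sources used here. The order by upstream ATG triplets held within each of 3 equal groups of UTR share, from 0.61 to −0.24 in the lowest and from −0.36 to −0.78 in the highest. Those groups do not hold 5′ UTR length constant. Centring within the 5 groups of UTR share lowered the medians of the high families. Histones went from 1.53 to 1.36, heat shock proteins from 1.46 to 1.09 and proteasome subunits from 1.13 to 0.92. The chaperonin CCT went from 1.19 to 0.88 and mitotic genes from 0.85 to 0.51. Glycolytic enzymes went from 1.11 to 0.68 and cytosolic tRNA synthetases from 1.07 to 0.69. Mitochondrially encoded genes went from −4.21 to −4.68.

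**Figure D4:**
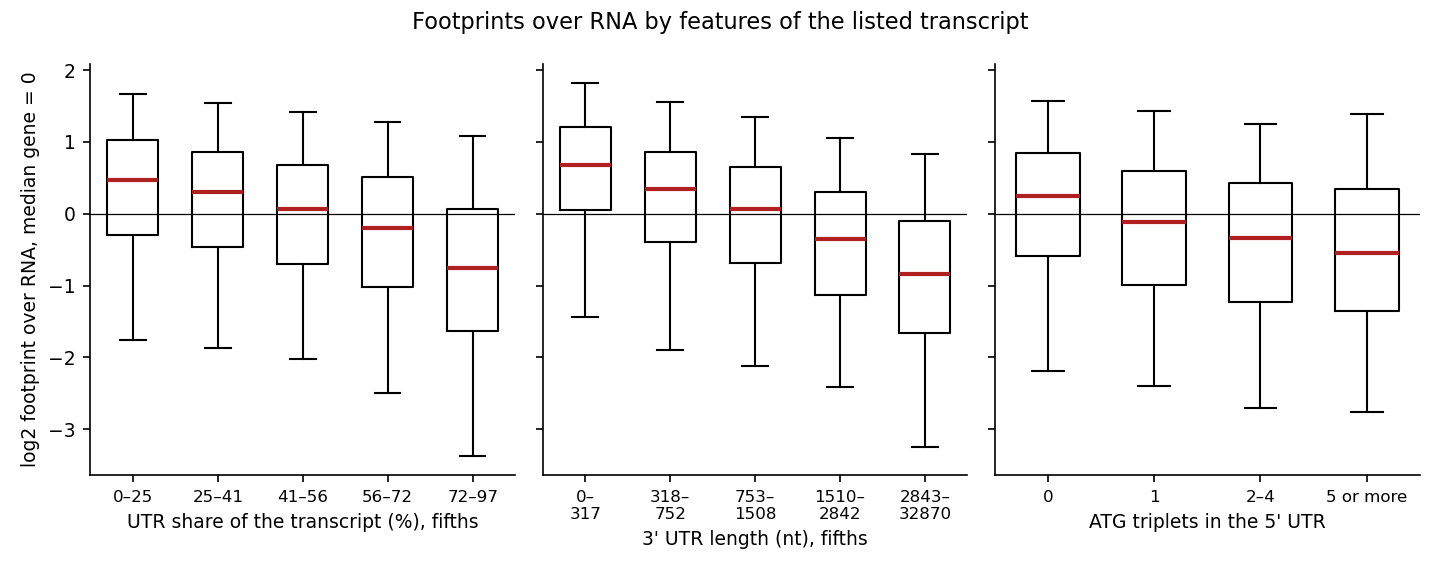
Boxes show log2 footprint over RNA (median gene at 0) for included genes, with the median in red, quartiles as the box and the 5th and 95th percentiles as whiskers. From left to right genes are grouped by UTR share of the transcript, by 3′ UTR length and by ATG triplets in the 5′ UTR. Medians go down from 0.47 to −0.75, from 0.68 to −0.85 and from 0.24 to −0.54.

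The knockout-labelled line gave the same comparison in its own 2 libraries. There 8598 genes passed, 1418 of them at least 2-fold above its median gene (16.5%) and 1975 below (23.0%). Over the 7551 genes passing in both lines the correlation across genes was 0.88 (Pearson) and 0.88 (Spearman), with transcript and protocol shared. Of genes 2-fold above in the OE-labelled line, 805 were so in the other, 68.2% of the one list and 56.8% of the other. Of those below, 1316 were shared, 74.4% and 66.6%. No gene was 2-fold above in one line and 2-fold below in the other. Of 50 genes 4-fold above here that passed in the other line, 48 were at least 2-fold above there, and of 595 that were 4-fold below, 560 were at least 2-fold below there.

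Ribosomal protein genes had lower ratios in the OE-labelled line than in the other. Their medians were 0.80 (large subunit) and 0.77 (small subunit) in the knockout-labelled line, against 0.09 and −0.01 here. Among all 7733 included genes, 3848 had the higher ratio in the OE-labelled line. Of the 47 large-subunit genes only 1 did, and of the 32 small-subunit genes only RPS21 and RPS26. RPL3 went from 0.51 there to −0.21 here, and RPS4X from 1.17 to 0.47. The other TOP mRNAs were all lower here, with a median of 0.51 there, and mitochondrially encoded genes had −3.47 there against −4.21. With 1 library per assay and line, the lines and the libraries cannot be told apart.

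**Figure D5:**
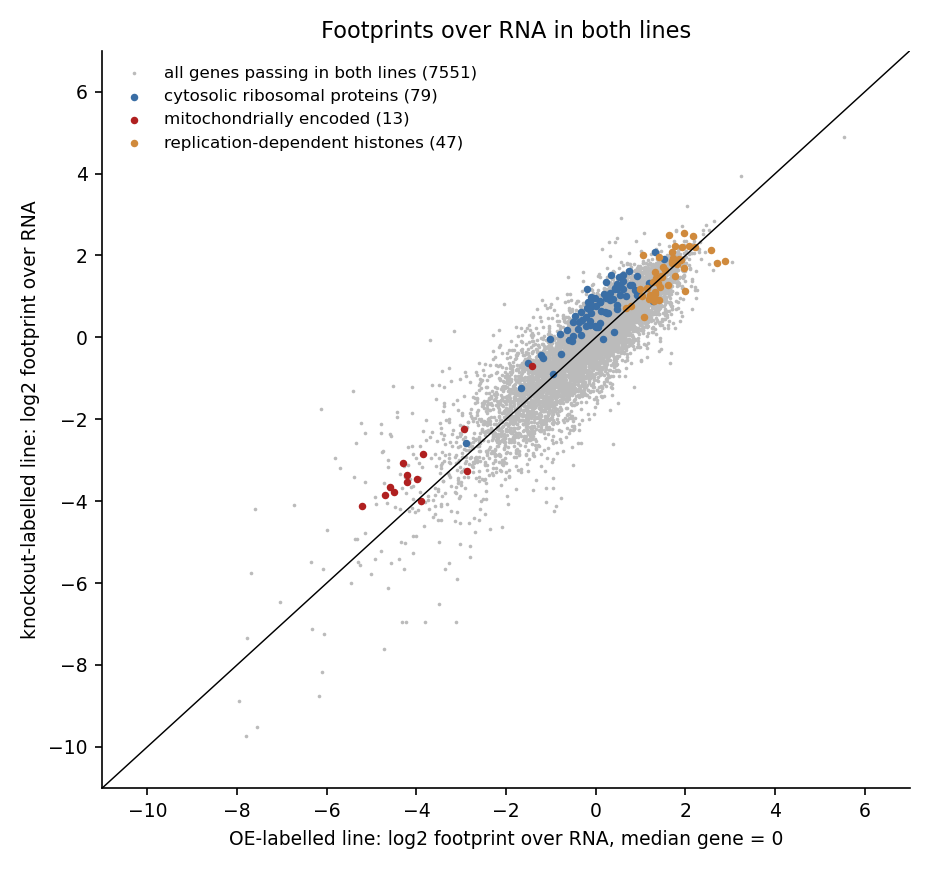
Each point is a gene that passed in both lines, with its log2 footprint over RNA in the OE-labelled line on the horizontal and in the knockout-labelled line on the vertical axis (median gene of each line at 0). The line marks equal values. Ribosomal protein genes lie mostly above it around 0 to 1, histones around 1 to 2 on both axes, and mitochondrially encoded genes mostly between −5 and −3.

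The libraries carried epithelial markers. Of 12 listed, 10 passed, among them EPCAM (1535 footprint and 1686 RNA counts, 0.89), VIL1, the brush-border villin (298 and 194, 1.64), and CDX2, the intestinal transcription factor (41 and 131, −0.64), while CDX1 and LGALS4 had 0 counts in both assays. The 12 held 10462 CPM of RNA and 30113 CPM of footprints, most of it from KRT8 (3372 and 11752 CPM) and KRT18 (5676 and 15106 CPM). None of 9 haematopoietic markers passed (13.1 CPM of RNA in all, PTPRC at 0), and of the stromal, endothelial and muscle markers only DES did (75 and 101 counts), with COL1A2, DCN, LUM and CDH5 at 0. Of 7 neural and germ-cell markers NES passed (310 and 266 counts), and RBFOX3, DDX4 and DAZL were at 0.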

How the data were processed

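Ribosome footprint and RNA libraries of the OE-labelled line were compared; the knockout-labelled pair was processed alike. Size selection kept 18 to 34 nt for footprints and 18 to 50 nt for RNA, the linkers held 4 and 5 random nt, and PCR ran for 15 cycles, per the labels' protocols. The authors deposited whole-number counts, with 1 transcript named for each of 19192 genes. GRCh38, HISAT2 2.1.0, Bowtie 1.1.2 and cutadapt 1.10 are named in the submitters' processing notes, without role or order. The counter, the counted part of the transcript, the strand setting and any collapsing of PCR copies are not given in the sources. Intervals are too narrow if copies were counted.

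From the counts, log2 CPM ratios were taken with 0.5 added to each count and the median of included genes subtracted. A count of 0 was set to 3 counts per library for a fold. Members, the 33 gene lists and the naming rule were chosen with earlier results of these data known. The rule names, among genes with at least 100 counts in both assays, the 15 highest and 15 lowest by the interval bound nearest to 0, the genes with the most counts in 1 assay and under 10 in the other (up to 10 each way), list members with the most RNA counts or extreme ratios, every member of lists of 15 or fewer, and IGF2BP1, LIN28B and paralogues. PHACTR1, ST8SIA1, IL32, UQCRH, keratins, genes with noncoding-RNA runs, genes with 0 footprints and other members of larger lists past 2-fold were named after their values were seen. Transcript features, coordinates and runs come from GENCODE release 29 (GRCh38), which held 19176 of the 19192 transcripts. Some genes and sequences are not reported here. No test was possible with 1 library a side. Counts were simulated with Poisson noise at both library totals, all from the RNA library's proportions. There 53.1% of 98 genes changed 2-fold and 100% of 100 changed 4-fold were past 2-fold. The interval contained the simulated ratio for 95.8% of 7578 genes. That covers counting error only and not the spread between the real assays. Alternatives were other count minimums, 5 added to each count, no centring, TMM (edgeR 4.0.16) and DESeq2 1.42.0 size factors, a rule on the interval bound, and 2 chosen after seeing the data, centring within 5 equal groups of UTR share and leaving out genes with over 5% of 25-mers shared. Versions were R 4.3.3, Python 3.11.15, pandas 2.3.3, matplotlib 3.10.9, scipy 1.17.1 and numpy 2.4.6.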

Additional observations from a re-analysis of the deposited data

How the results depend on the processing

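The counts of genes at least 2-fold above, 2-fold below, 4-fold above and 4-fold below the median gene were 1180, 1770, 61 and 622. They were 301, 683, 9 and 126 with at least 100 counts in both assays (4605 genes, centre higher by 0.48), 3201, 3877, 753 and 1670 with at least 1 count in either assay (14731 genes), and 780, 1172, 20 and 330 when the interval bound nearest to 0 had to pass the fold. With at least 50 counts in either assay 105 genes were 4-fold above, and without genes with over 5% of 25-mers shared, 36 were. Counts stayed within 1.5 times with 5 added to each count, no centring, TMM, DESeq2 size factors and centring within 5 equal groups of UTR share. No result changed its direction after being called; values near 0, such as the medians of ribosomal proteins and matrix genes and the ratios of IGF2BP1 and IGF2BP3, changed sign with the centre. Counting error limits genes near 100 counts, and UTR share, shared sequence and library are not separated from translation. No paired analysis was possible because each assay of the line has 1 library.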
